A study of Mus musculus with 5 samples.

Results

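Genes of the astrocyte and oligodendrocyte lineages were examined for acetylation of histone H3 at lysine 9 (H3K9ac) in the STHdh cell line model of Huntington's disease. The 10 genes were Gfap, Aqp4, Slc1a2, Slc1a3 and S100b for astrocytes, and Olig1, Olig2, Sox10, Mbp and Pdgfra for the oligodendrocyte lineage, out of 22380 annotated protein-coding genes. Peaks were assigned to every gene with a transcript start (GENCODE vM1) no more than 10 kb from the centre of the peak. By this rule 8 of 34286 peaks in DOP-treated cells and 6 of 33355 peaks in untreated cells were near the 10 genes. All cells were STHdh Q111 striatal progenitors of mouse strain C57BL/6, a line grown at its permissive temperature, in which both copies of the huntingtin gene carry an expanded CAG repeat. They were deprived of serum for 24 h, and the treated cells also received 4 mM 4-deoxypyridoxine (DOP), an inhibitor of sphingosine-1-phosphate lyase, whereas untreated cells received the vehicle. H3K9ac was immunoprecipitated from 2 samples per condition, and the authors deposited 1 peak list per condition, with a score for every peak, here called the DOP list and the untreated list. The lists carry no replicate values and do not define the score, so the depth behind a peak is unknown and differences between the lists have no replicate check. Scores were therefore ranked within their own list, where percentile 100 is the highest peak. All coordinates are those of mm9.

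H3K9ac marks active gene starts. It is added by acetyltransferases and removed by histone deacetylases, and a start that lacks it is usually weakly transcribed or silent. Neural progenitors of the forebrain can give rise to astrocytes, which take up glutamate and buffer water and ions, and to oligodendrocytes, which wrap axons in myelin. The oligodendrocyte fate is entered through transcription factors such as Olig2 and Sox10 and the astrocyte fate through factors such as Sox9 and Nfia, and the genes for transporters, filaments and myelin proteins follow later.

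The glial genes had no peak, or only peaks below the median score of their list. In the DOP list 5 of the 10 genes had a peak within 10 kb, against 57.7% of all protein-coding genes. In the untreated list 3 of the 10 had a peak, against 56.9% of all genes. Gfap, Aqp4, Olig1, Olig2 and Sox10 had no peak in either list. Slc1a2, S100b and Pdgfra had peaks in both, and Slc1a3 and Mbp had 2 peaks each in the DOP list and 0 in the untreated list. Within 1 kb of a start, 4 of the 10 genes had a DOP-treated peak and 2 had an untreated peak, where 51.4% and 50.8% of all genes had a peak.

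**Figure D1:**
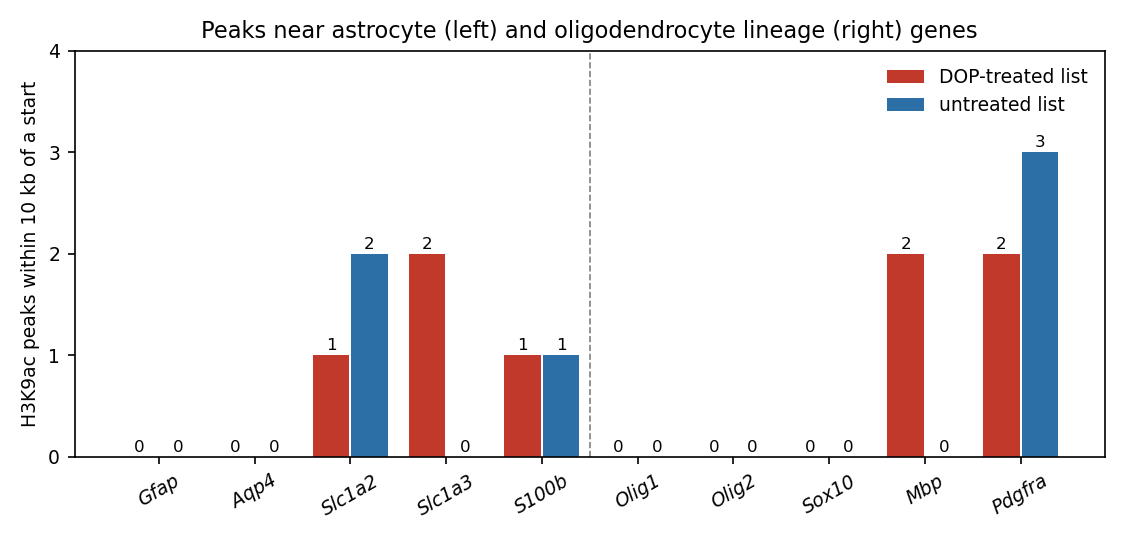
Number of H3K9ac peaks centred within 10 kb of a transcript start (vertical axis) for each of the 10 genes (horizontal axis), with DOP-treated peaks in red and untreated peaks in blue; each bar is 1 count from 1 peak list, so there are no error bars. The 5 genes with 0 and 0 have no peak in either list, and Slc1a3 and Mbp have 2 DOP-treated and 0 untreated peaks.

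Slc1a3 encodes GLAST, the glutamate transporter of radial glia and astrocytes. The gene lies on chromosome 15 from 8584124 to 8660764 (minus strand of mm9). Its DOP-treated peaks were centred 497 bp and 1015 bp downstream of the 5′-most start, both in an intron. The first ran from 8660168 to 8660367 with a score of 137.1, and the second from 8659650 to 8659849 with a score of 84.9. They ranked at percentiles 15.0 and 8.05 of the DOP list, so both were weak peaks. The untreated list had no peak within 50 kb of any Slc1a3 start, and its nearest peak was 74084 bp away from a start of the gene. A further DOP-treated peak of score 127.0 lay beyond the 3′ end of Slc1a3, 15734 bp from its nearest transcript start, and was also found in the DOP list only. The interval of the second intronic peak is shown because it is clear of the untranslated exons. It is printed on the strand of the gene (chr15:8659650-8659849, mm9), with each CpG in capitals.
Slc1a3 intronic peak, DOP list only: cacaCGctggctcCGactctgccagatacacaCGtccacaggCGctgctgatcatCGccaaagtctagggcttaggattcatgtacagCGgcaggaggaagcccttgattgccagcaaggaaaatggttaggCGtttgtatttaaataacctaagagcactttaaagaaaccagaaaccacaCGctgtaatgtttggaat
It holds 8 CpGs in 200 bases.

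Slc1a2 encodes GLT-1, the main glutamate transporter of mature astrocytes, and lies on chromosome 2 from 102498816 to 102630941 (plus strand). It had 1 DOP-treated peak, centred at 102499198 with a score of 100.0. The untreated list had 2 peaks, centred at 102499018 and 102499335 with scores of 60.6 and 65.3. The DOP-treated peak lay between the untreated ones, 180 bp and 137 bp from them, and overlapped both. All 3 were centred in the 5′ untranslated exon within 519 bp of the first start. They ranked at percentile 10.1 in the DOP list and at 5.93 and 6.54 in the untreated list. Slc1a2 has 12 distinct transcript starts that span 102514 bp, and the peaks were confined to its most upstream group of starts in both lists.

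S100b encodes a calcium-binding protein of astrocytes and of some oligodendrocyte lineage cells. It lies on chromosome 10 from 75716598 to 75723904 (plus strand). Each list had 1 peak near it, with a score of 156.0 in the DOP list and 136.0 in the untreated list, centred 77 bp apart. The DOP-treated peak was centred 8451 bp from the S100b start, past the 3′ end of the gene. The nearest start to both was that of Dip2a, at 3204 bp and 3127 bp. When a peak was given only to the gene with the nearest start, S100b thus had no peak in either list. More than 10 kb upstream of S100b lay stronger peaks at the start of its neighbour Prmt2, with scores of 989.8 and 524.2 in the DOP list and 878.6 and 375.4 in the untreated list.

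Gfap encodes the intermediate filament of mature astrocytes and lies on chromosome 11 from 102748650 to 102762226 (minus strand). Neither list had a peak in the gene. The nearest DOP-treated peak was 15543 bp from a Gfap start and 343 bp from the start of Ccdc103. The nearest untreated peak was 16204 bp away and 8 bp from a start of Eftud2. The 200 bases before the protein-coding start of Gfap (chr11:102758515-102758714, mm9, strand of the gene) are shown as a start region that is poor in CpG, with CpGs in capitals.
Gfap, 200 bases before the start: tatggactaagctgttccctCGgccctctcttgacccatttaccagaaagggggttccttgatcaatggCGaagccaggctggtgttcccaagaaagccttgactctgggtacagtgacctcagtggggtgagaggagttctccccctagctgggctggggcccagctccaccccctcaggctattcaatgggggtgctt
Only 2 CpGs occur in these bases.

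Aqp4 encodes the water channel of astrocyte endfeet. It lies on chromosome 18 from 15547903 to 15562193 (minus strand). Aqp4 was the gene farthest from any peak among the 10, with the nearest DOP-treated peak 338758 bp and the nearest untreated peak 251857 bp from its starts. The latter was among the weakest of the untreated list, at percentile 0.351.

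Of the oligodendrocyte lineage genes, Pdgfra and Mbp had peaks, and the 3 transcription factor genes had none. All peaks of Pdgfra and Mbp were nearest to a start of the gene itself.

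Pdgfra had the strongest peaks among the 10 genes. It encodes the receptor for platelet-derived growth factor that marks oligodendrocyte precursors, and that many mesenchymal cells also carry. The gene lies on chromosome 5 from 75548316 to 75594229 (plus strand) and has 2 annotated starts 3875 bp apart. Downstream of the first start, a DOP-treated peak with a score of 288.0 and an untreated peak with a score of 245.0 were centred only 9 bp apart. Just upstream of the second start, a DOP-treated peak of 410.0 and an untreated peak of 285.0 were centred 29 bp apart. These pairs ranked at percentiles 35.0 and 31.2, and at 49.0 and 36.3, of their own lists. A further untreated peak with a score of 161.0, 629 bp downstream of the second start, overlapped no DOP-treated peak and was 745 bp from the nearest.

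The scores near Pdgfra summed to 698.0 in the DOP list and 691.0 in the untreated list. The peak pairs were thus at near-equal places, while the further peak was listed for untreated cells alone. The following intervals are shown with CpGs in capitals (mm9, plus strand, which is the strand of the gene), because the gene has the strongest signal of the set and the last interval was found in 1 list only.
Pdgfra first start, DOP list, chr5:75549126-75549325: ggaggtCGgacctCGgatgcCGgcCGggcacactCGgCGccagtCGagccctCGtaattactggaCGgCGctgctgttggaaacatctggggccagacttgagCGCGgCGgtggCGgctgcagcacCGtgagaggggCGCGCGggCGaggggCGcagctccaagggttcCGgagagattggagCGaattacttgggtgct
Pdgfra second start, DOP list, chr5:75551976-75552175: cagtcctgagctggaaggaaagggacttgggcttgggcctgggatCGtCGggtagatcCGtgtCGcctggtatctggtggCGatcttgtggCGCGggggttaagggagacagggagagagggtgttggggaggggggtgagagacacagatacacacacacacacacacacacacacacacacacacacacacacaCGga
Pdgfra second start, untreated list only, chr5:75552721-75552920: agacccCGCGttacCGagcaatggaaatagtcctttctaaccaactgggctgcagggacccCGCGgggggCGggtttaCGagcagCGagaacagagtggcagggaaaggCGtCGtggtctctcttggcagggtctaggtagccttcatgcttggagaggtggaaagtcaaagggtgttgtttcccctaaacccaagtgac
The interval labelled by the first start is centred 909 bp downstream of it and holds 22 CpGs, and those around the second start hold 8 and 10. The 200 bases before the first start hold only 1 CpG. The second interval ends in a run of CA repeats next to its last CpG.

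Olig1 and Olig2 encode the basic helix-loop-helix factors that specify the oligodendrocyte lineage, and they are neighbours on chromosome 16. Olig2 lies from 91225795 to 91228922 and Olig1 from 91270014 to 91272184, both on the plus strand. The nearest peak to both genes was the same, at the start of Ifnar2. It was 102803 bp from the Olig1 start in the DOP list and 102849 bp in the untreated list, and 147022 bp and 147068 bp from the Olig2 start. The 200 bases before each start are shown, since both start regions are rich in CpG although they held no peak (CpGs in capitals).
Olig1, 200 bases before the start, chr16:91269814-91270013: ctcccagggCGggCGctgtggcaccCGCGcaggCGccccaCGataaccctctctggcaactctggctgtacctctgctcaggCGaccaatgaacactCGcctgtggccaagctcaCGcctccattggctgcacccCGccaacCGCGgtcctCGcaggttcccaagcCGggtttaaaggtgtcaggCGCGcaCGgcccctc
Olig2, 200 bases before the start, chr16:91225595-91225794: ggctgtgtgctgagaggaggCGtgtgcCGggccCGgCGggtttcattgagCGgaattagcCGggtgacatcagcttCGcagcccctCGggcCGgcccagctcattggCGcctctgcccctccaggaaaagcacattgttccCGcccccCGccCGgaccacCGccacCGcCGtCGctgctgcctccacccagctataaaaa
Each holds 17 CpGs, against 2 before the Gfap start.

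Sox10 encodes the factor that maintains the oligodendrocyte lineage and switches on myelin genes. It lies on chromosome 15 from 78985343 to 78994920 (minus strand). The nearest peaks were 22885 bp away in the DOP list and 22843 bp in the untreated list. They belong to the start of Polr2f, a subunit of the RNA polymerases, and ranked at percentiles 82.9 and 83.5. A strong peak was therefore present beyond 10 kb from Sox10 in both lists, but at another gene.

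Mbp encodes myelin basic protein and lies on chromosome 18 from 82644538 to 82755029 (plus strand). Its transcripts start at separate places. The upstream starts give the golli transcripts, which are also known outside myelinating cells, and the starts about 79317 bp downstream give the classic myelin transcripts. The DOP-treated peaks flanked the upstream start, with centres 199 bp before it and 195 bp after it and scores of 44.9 and 81.1. They ranked at percentiles 2.93 and 7.58 of their list, so that Mbp had no peak once the lowest 10% of the list was left out. The nearest untreated peaks to them were 47812 bp and 47418 bp away. Neither list had a peak within 10 kb of the classic starts. In an intron between the groups of starts, 31308 bp before the classic start, a DOP-treated peak of 144.0 and an untreated peak of 97.7 were shared, and both lists thus held some signal in the gene. Beyond 10 kb each list also held an intronic peak of its own. The untreated one had a score of 68.3 and lay 396 bp from the nearest DOP-treated peak. The DOP-treated one had a score of 44.0 and lay 18145 bp after the nearest upstream start.

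**Figure D2:**
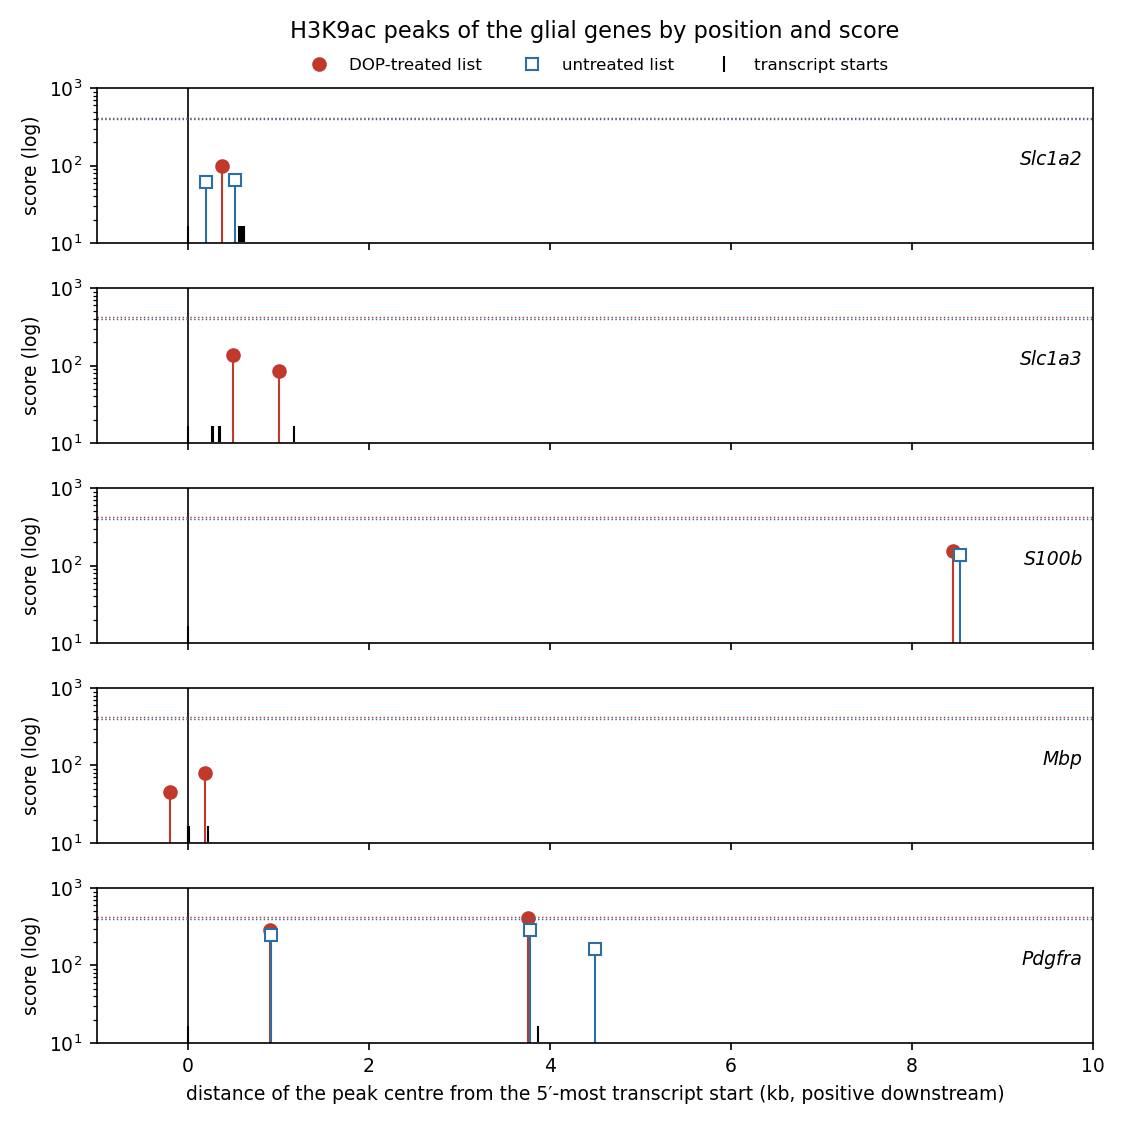
Score of each peak on a log axis (vertical) against the distance of its centre in kb from the 5′-most transcript start (horizontal, positive downstream) for the 5 genes with a peak within 10 kb; red circles are DOP-treated and open blue squares untreated peaks, black ticks are transcript starts inside the range, and dotted lines are the median scores of the whole lists, 418.7 and 399.8. All peaks shown lie below the median of their list, and the Slc1a3 and Mbp panels hold red circles alone.

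Across the 10 genes, 0 of the peaks in either list reached the median score of all peaks, which was 418.7 in the DOP-treated and 399.8 in the untreated list. The median percentile of the 8 DOP-treated peaks was 12.6, with a range from 2.93 to 49.0. That of the 6 untreated peaks was 17.9, with a range from 5.93 to 36.3. Taking only the highest peak of each gene, the median over all genes with a peak was percentile 78.4 in the DOP list and 77.3 in the untreated list. Among those genes Pdgfra ranked at percentile 19.6 and 13.5 of genes, S100b at 6.25 and 5.63, and Slc1a2 at 3.72 and 2.25. Slc1a3 ranked at 5.50 and Mbp at 2.70 in the DOP list.

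The lists were next compared gene by gene. Slc1a3 and Mbp had more peaks in the DOP list, Slc1a2 and Pdgfra had fewer, and S100b had equal numbers. In all, 13272 genes had a peak in at least 1 of the lists, and 32.5% of these had more and 28.5% fewer, so the 10 genes showed no single direction. Among the 5 glial genes with any peak, 2 were specific to the DOP list and 0 to the untreated list, against 4.03% and 2.73% of all genes with any peak. At the level of peaks, 4 of the 8 DOP-treated peaks were found in that list only (exact 95% binomial interval 15.7% to 84.3%, counting error only), against 20% of the whole list. Of the 6 untreated peaks 1 was found in that list only (0.421% to 64.1%), against 16.7% of the whole list. The 4 DOP-only peaks belong to 2 genes and are not independent.

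For the 3 glial genes present in both lists, the summed scores were compared. The ratio of the DOP-treated to the untreated sum was expressed on the log2 scale relative to the median over all 12375 genes in both lists, which was 0.10. It was −0.09 for Pdgfra, 0.10 for S100b and −0.43 for Slc1a2. Among the ratios of all these genes Pdgfra lay at percentile 34.5, S100b at 65.9 and Slc1a2 at 4.36, so the ratio of Slc1a2 was near the low end. None of the 3 passed 2-fold, a limit that few genes passed, since 0.816% of all genes were more than 2-fold higher and 0.590% more than 2-fold lower. The direction for Slc1a2 and Pdgfra depended on the measure, because their highest single peak in place of the sum gave 0.54 and 0.45. No error can be attached to these ratios.

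Weak peaks were often found in 1 list only, whatever the gene. Among all genes whose highest DOP-treated peak ranked between percentiles 5 and 10, as for Mbp, 137 of 248 had no untreated peak within 10 kb, or 55.2% (95% Wilson interval 49.0% to 61.3%). Between percentiles 10 and 20, as for Slc1a3, this was the case for 122 of 448 genes, or 27.2% (23.3% to 31.5%). Above percentile 50 it was the case for 0.194% of genes. The untreated list showed the same course, with 33.6% and 16.6% in the lower bins and 0.218% above percentile 50. The absence of Mbp from the untreated list was thus shared by more than 50% of genes with peaks of that rank. That of Slc1a3 was shared by 27.2%, so most genes of its rank did have an untreated peak. Of the 535 genes of the DOP list only, 140 had at least 2 peaks, as Slc1a3 and Mbp did, which is 26.2% of them. By their highest peak Slc1a3 and Mbp ranked at percentiles 71.4 and 43.2 among these 535 genes. The part that rank played in the 2 differences was not tested.

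**Figure D3:**
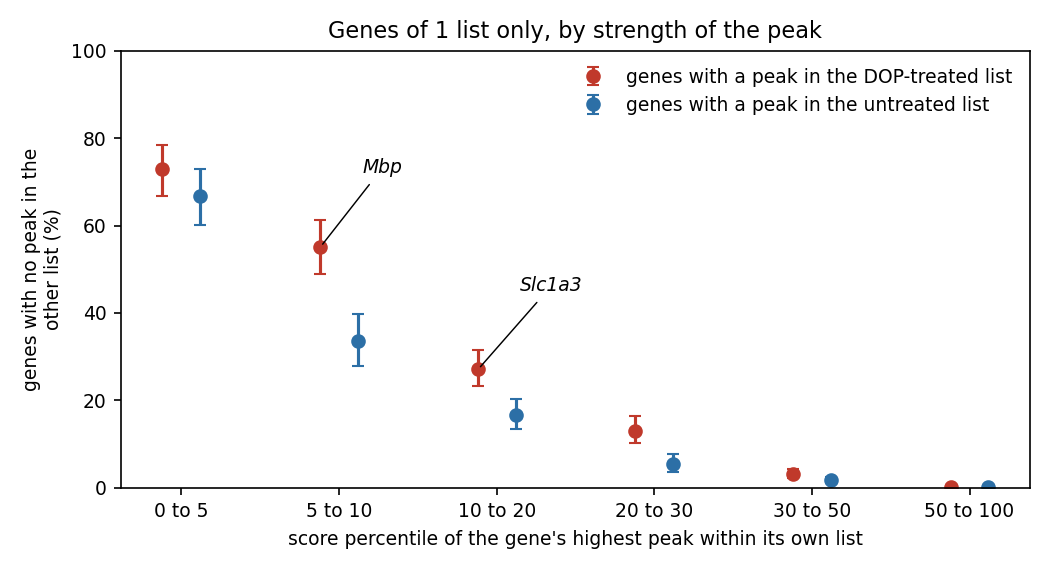
Percentage of genes that have no peak within 10 kb in the other list (vertical axis) against the score percentile of their highest peak in their own list (horizontal axis, in bins), in red for genes of the DOP list and in blue for genes of the untreated list; bars are 95% Wilson intervals, which cover counting error only. The share falls from 72.9% to 0.194% for the DOP list, and the bins of Mbp (55.2%) and Slc1a3 (27.2%) are marked.

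The base composition of the start regions, which played no part in choosing the genes, also differed among them. CpG content was expressed as the observed over expected ratio in 1 kb around each start. Over 22369 genes the share with a DOP-treated peak within 1 kb of the start rose with this ratio, from 1.68% below 0.2 to 91.2% at 0.8 and above. For untreated peaks it went from 1.72% to 91.5%. The Slc1a2 start had a ratio of 0.812 and a peak in both lists. The Pdgfra starts had ratios of 0.419 and 0.617, and each had a peak in both lists. Slc1a3 had a ratio of 0.554, equal to the median over all genes, in a class of which 48.7% had a DOP-treated and 46.9% an untreated peak. The upstream Mbp start, at 0.60, lay at the lower edge of a class of which 81.4% and 80.8% did. Both genes had a DOP-treated but no untreated peak within 1 kb. S100b at 0.169, Aqp4 at 0.294, Sox10 at 0.326 and Gfap at 0.422 lay in classes of which 1.68% to 48.7% had a DOP-treated peak, and none of these genes had a peak within 1 kb.

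Olig1 and Olig2 stood apart from the other genes without a peak. Their ratios were 0.808 and 0.742, above those of 80.3% and 70.9% of genes. In these classes 91.2% and 81.4% of genes had a DOP-treated peak within 1 kb, and 91.5% and 80.8% an untreated peak. Of the 10293 genes with a ratio of at least 0.6, 746 (7.25%) lacked a peak of either list within 50 kb of the start, as both Olig genes did, and 504 (4.90%) lacked one within 100 kb. Among genes below 0.6 these shares were 43.7% and 31.6%. Both distances were chosen with the values of the Olig genes known, and Olig1 passed 100 kb by less than 3 kb. Genes that lie close together, such as Olig1 and Olig2, share such a stretch and are not separate observations.

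**Figure D4:**
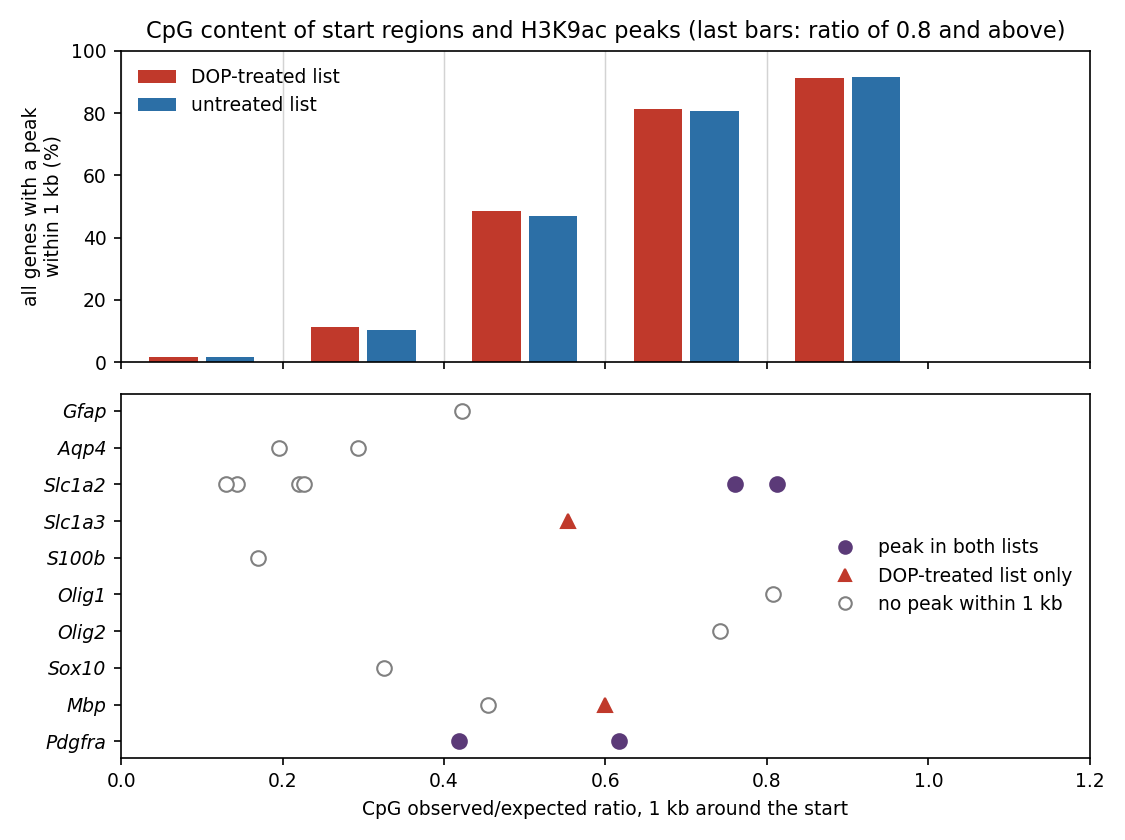
Upper panel, percentage of all genes with a peak within 1 kb of the start (vertical axis) in classes of the CpG observed over expected ratio (horizontal axis), in red for DOP-treated and blue for untreated peaks; lower panel, the ratio at each protein-coding start of the 10 genes, marked by whether a peak lay within 1 kb. Olig1 (0.808) and Olig2 (0.742) are open circles in classes where 91.2% and 81.4% of all genes have a DOP-treated peak.

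Further genes of both lineages were listed to set the 10 genes in context. Of 20 other astrocyte genes 16 had a peak in each list, or 80%, against 57.7% (DOP list) and 56.9% (untreated list) of all genes. The highest peak of 12 of them was above percentile 50 in each list. Over all genes the same held for 10312 of 12910 with a DOP-treated peak and 10080 of 12737 with an untreated peak. The median highest peak of the listed genes, at percentile 81.7 and 75.8, was near that of all genes, at 78.4 and 77.3. A peak nearest to a start of the gene itself was present for 13 genes in the DOP list and 14 in the untreated list, and Aldoc and Hes5, which counted among the 12 of each list, had none. The strongest by DOP-treated peak were Vim at percentile 98.0 and 94.0 (DOP-treated and untreated), Nfix at 96.0 and 98.2 and Id3 at 95.9 and 91.3. Vim encodes vimentin, a filament of progenitors and many other cells, Nfix a nuclear factor I protein, and Id3 an inhibitor of helix-loop-helix factors. None of these is specific to astrocytes. Genes that mature astrocytes use more selectively were divided, and those given here were chosen after their values had been seen. Gja1, which encodes the gap junction protein connexin 43, ranked at percentile 90.0 and 83.9, and Glul, which encodes glutamine synthetase, at 56.9 and 44.5. Fgfr3, a growth factor receptor gene, ranked at 53.4 and 65.3, and Slc4a4, a bicarbonate transporter gene, at 49.6 and 57.1. Aldh1l1 and Gjb6 had no peak in either list. In this list 7 genes had more and 8 had fewer peaks in the DOP list, and 0 passed 2-fold in summed score in either direction.

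Of 20 other oligodendrocyte genes 5 had a peak in the DOP list and 8 in the untreated list. These are 25% and 40%, against 57.7% and 56.9% of all genes. The strongest by DOP-treated peak were Sirt2 at percentile 59.1 and 57.4, Cnp at 50.7 and 26.4 and Sox8 at 42.9 and 37.8. Sirt2 encodes a deacetylase that is abundant in myelin and present in many cells, Cnp a myelin-associated phosphodiesterase, and Sox8 a factor related to Sox10. The Sox8 peaks were nearest to a start of another gene, and only 1 of 4 DOP-treated and 2 of 3 untreated Sirt2 peaks were nearest to a Sirt2 start. Of further genes for myelin proteins, chosen after their values had been seen, Mog had peaks in both lists at percentile 23.7 and 13.5, while Mag, Mobp and Opalin had none in either list. Myrf, Nkx2-2 and Ugt8a, named here after their values had been seen, each had 1 peak in the untreated list and 0 in the DOP list, at percentiles 11.3, 5.29 and 3.91. Within 10 kb of a start, weak peaks of 1 list only were therefore found near oligodendrocyte genes in both directions, with Mbp in the DOP list and these 3 genes in the untreated list. Of 8 of these 20 genes with a CpG ratio of at least 0.6, 2 had a DOP-treated and 4 an untreated peak within 1 kb, while over all genes with such a ratio 85.9% and 85.6% did. Among the other astrocyte genes 9 and 10 of 11 did.

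The label of the cells was checked against markers of progenitors and other cell types. Of 9 neural progenitor genes with an annotation, 5 had a peak in the DOP list and 4 in the untreated list. These are 55.6% and 44.4%, against 57.7% and 56.9% of all genes. Meis2 and Dlx1, regulators of the ventral forebrain and striatum, ranked at percentiles 79.9 and 76.3 in the DOP list, whereas the defining markers Nes, Sox2 and Pax6 had no peak in either list. Starts with a CpG ratio of at least 0.6 also lacked peaks in these lists, since 2 and 3 of 8 such progenitor genes and 0 and 0 of 3 such neuron genes had a DOP-treated and an untreated peak within 1 kb. Of 8 mesenchymal genes 6 had a peak in each list, or 75%, against 57.7% (DOP list) and 56.9% (untreated list) of all genes. They were led in the DOP list by Twist1 at percentile 95.5, Col1a1 at 89.6 and Fn1 at 78.8. The highest peak of 4 of the 8 was above percentile 50 in each list, and Thy1 and Lum had no peak in either list. The median highest peak of the 6 others was at percentile 70.9 (DOP list) and 66.6 (untreated list). Over all genes with a peak it was at 78.4 and 77.3. The peaks of Fn1 were nearest to a start of another gene, and 5 of the 8 genes had a peak nearest to their own start in each list. Of 9 neuron genes 1 had a peak in each list, or 11.1%, which was Ppp1r1b at percentile 80.2 and 85.4. Only 2 of its 4 DOP-treated and 1 of its 4 untreated peaks were nearest to its own start. Within 1 kb of a start it had a peak in the DOP list only. Of 8 microglia genes 2 had a peak in the DOP list and 3 in the untreated list, or 25% and 37.5%. The 2 with a DOP-treated peak, Cd68 and Aif1, had peaks nearest to starts of other genes only. The further gene of the untreated list had 1 peak, nearest to its own start, at percentile 15.2. The peaks of Pdgfra thus stood beside peaks near some other genes of mesenchymal cells and of progenitors, while further genes of both groups had none. A peak shows acetylation of the start region and not the level of the transcript, which was not analysed here.

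**Figure D5:**
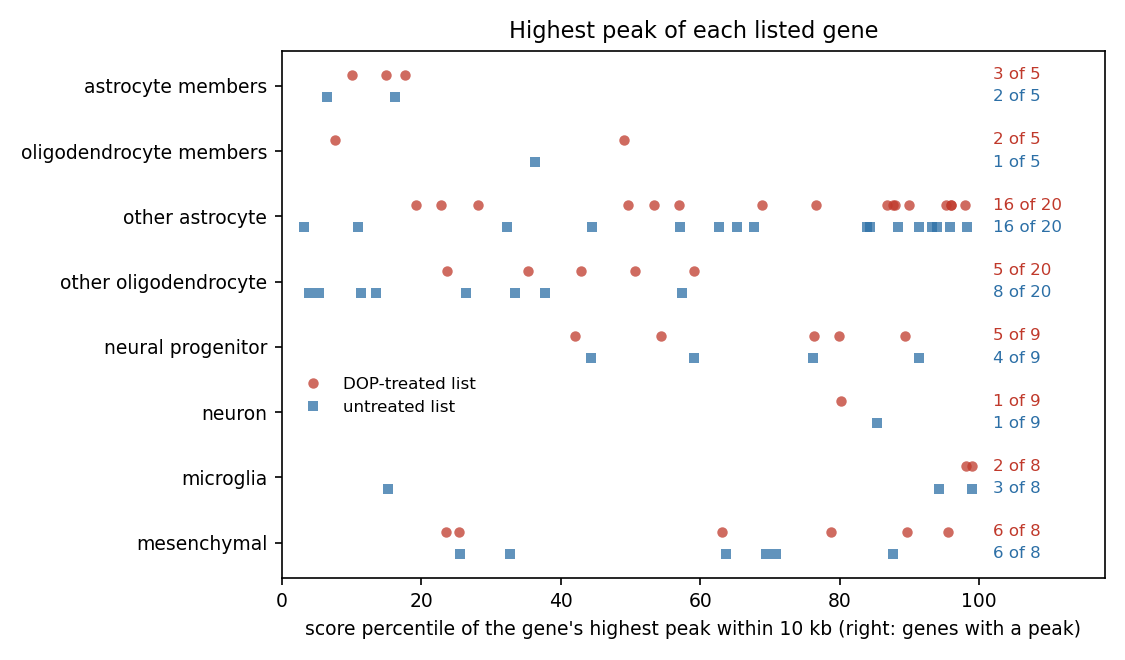
Score percentile of the highest peak within 10 kb (horizontal axis) for every gene with a peak in each group of genes (vertical axis), with DOP-treated peaks as red circles and untreated peaks as blue squares; numbers at the right are genes with a peak out of genes in the group. Of the 10 glial genes, 5 have a point for the DOP list and 3 for the untreated list, all at or below percentile 49.0. In each list 12 of the other astrocyte genes, not all the same ones, lie above 50. Over all genes 10312 of 12910 with a DOP-treated peak and 10080 of 12737 with an untreated peak do.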

How the data were processed

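H3K9ac ChIP-seq reads of the 2 DOP-treated and 2 untreated samples were aligned by the authors to mm9, with Bowtie 2 per the study's methods and BWA 0.7.10 per the submitters' processing notes, and peaks were called with GPS (the file headers name GEM events). The deposited lists give, for each peak, a position and a score whose definition, like the call threshold, the handling of the 2 samples and the use of the IgG control, is not given in the sources used here. The IgG sample was not analysed here. Depth is unknown. Both lists are longer than the calls counted in the study's methods, and which peaks were not counted there is not given in the sources used here.

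Peak positions fitted the chromosome lengths of NCBIM37 (mm9) with 0 peaks past an end. Transcript starts of protein-coding genes came from GENCODE vM1, and a peak was shared when it overlapped a peak of the other list by at least 1 bp. Percentiles are the share of a list with a score at or below that of the peak. Scores were summed per gene within 10 kb. No test between conditions was possible with 1 list per condition. The 10 genes and the other lists were chosen with earlier results of these data known, and 74 of 76 other listed genes were matched by symbol (Myrf as Gm98). All 10 genes were named, and of each other list the 3 with the highest DOP-treated percentile, except that some listed genes are not reported here. The functions recovered 6 of 6 planted answers on 3000 made-up starts. Alternatives were other windows, rules for sharing and score limits. Python 3.11.15, scipy 1.17.1, matplotlib 3.10.9, pandas 2.3.3, numpy 2.4.6, samtools 1.23.1 and pysam 0.24.0 were used.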

Additional observations from a re-analysis of the deposited data

How the results depend on the processing

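No paired analysis was possible because the deposited lists hold no values per sample, and for the same reason no replicate could be left out. Under the alternatives, 58 values stayed close to the reported value or on the same side of 2-fold, and 19 did not. Restricted to the top 50% of each list, the 10 genes had 0 peaks in either list, so 0 genes had a peak, 0 had more or fewer in the DOP list and 0 peaks were found in 1 list only, since all their peaks rank lower. The other oligodendrocyte genes then fell to 2 and 1 with a peak. Within 1 kb these were 3 and 5. Within 20 kb there were 15 DOP-treated and 11 untreated peaks near the 10 genes, and within 50 kb, chosen after seeing the data, 6 genes had an untreated peak and 7 a DOP-treated peak. A score of at least 100, also chosen afterwards, left 5 DOP-treated peaks, with Slc1a3 still among the 4 genes and Mbp not. Without the lowest 10% of each list, likewise chosen afterwards, 5 DOP-treated and 4 untreated peaks were left, Mbp and Slc1a2 lost their DOP-treated and untreated peaks respectively, and 4 and 2 genes had a peak. With reciprocal overlap of at least 50% there were 3 untreated-only peaks, and with centres within 1 kb 0. Slc1a3 and Mbp kept more peaks in the DOP list, and Slc1a2 and Pdgfra fewer, under each window. With a score of at least 100, or without the lowest 10%, Slc1a2 instead had a peak in the DOP list only. The unknown depth limits the weak peaks, which are the only ones these genes have.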
